A study of Mus musculus with 4 samples.

Results

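The ADAM, ADAMTS, MMP and TIMP genes were examined in dendritic cells (DC) of the mouse spleen, in CD8α+ DC set against CD8α− DC. The members were all probe sets whose only gene symbol in the platform annotation is Adam, Adamts, Mmp or Timp followed by a digit. This gave 116 of 45101 probe sets, for 65 of 18193 genes. There were 28 Adam, 15 Adamts, 18 Mmp and 4 Timp genes. A further 5 probe sets listed a member beside another gene and were left out. Expression arrays of the Affymetrix mouse platform were run on RNA of splenic DC of the C57BL/6 strain, 2 with CD8α+ DC and 2 with CD8α− DC. Both populations are from the same strain, and the labels name no treatment, age or gene change. Neither the sorting nor the number of animals behind each group is stated in the labels, so p-values measure only the spread between these arrays, which may be technical.

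ADAM, ADAMTS and MMP proteins are zinc-dependent proteases that are made as inactive precursors. Membrane-bound ADAM proteins shed the outer parts of cytokines, receptors and adhesion molecules from the cell surface, while ADAMTS and most MMP proteins are secreted and cut proteoglycans, collagens, elastin and other matrix proteins. TIMP proteins bind the active site and inhibit them. In DC these proteases are known for the release of membrane-bound cytokines, for Notch signalling and for migration through matrix.

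Cd8a, which defines the groups, was higher in CD8α+ DC on each of its 5 probe sets, with differences of 2.87 to 6.78 on the log2 scale. Of 11 tested markers of the type 1 conventional DC lineage, 10 were higher in CD8α+ DC at an unadjusted limma p under 0.05, and 6 of 7 tested type 2 markers were lower. Among markers of other cells, 4 of 8 tested NK cell, 1 of 3 B cell, 1 of 6 plasmacytoid DC and 1 of 4 stromal genes were lower, 1 B cell gene was higher, and 0 of 6 T cell and 0 of 2 erythroid genes passed. CD8α− replicate 2 stood apart: the ratio of 3′ to 5′ signal of its Gapdh controls was 10.7, against 1.53 to 2.02 on the other arrays, while that of its Actb controls was lower, 0.759 against 1.62 to 1.69. Across probe sets the CD8α+ pair of arrays correlated at r = 0.956 on the log2 scale, and the CD8α− pair at 0.836. Signals below are MAS5 values quantile normalized between arrays. The highest Bacillus control of an array served as background, at 22.6 to 35.6 after normalization. Differences are log2 CD8α+ minus CD8α− with the standard error of the limma fit, from 2 arrays per group. In bulk RNA of this kind, fewer cells of a type and less RNA per cell cannot be told apart.

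Most members were dim. A probe set was tested when its mean signal reached 23.7, the median of the array, and 35 of the 116 member probe sets passed, for 25 genes. The last member inside was Adam24, at a mean of 25.8, and the nearest outside was an Adamts3 probe set at 23.7, just under the limit. Of the 81 untested probe sets, 56 were above background on no array, 21 on 1 array and 4 on 2 arrays. The 40 untested genes were 16 Adam genes, mostly of testis, 13 of the 15 Adamts genes, 9 Mmp genes and 2 Timp genes. Of the 25 tested genes, 15 were above background on all 4 arrays.

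After adjustment over the whole table, no member passed. Of 22521 probe sets and of 10530 genes, 0 had a limma adjusted p under 0.05 (0% called in both), while 3525 probe sets (15.7%) and 1687 genes had an unadjusted p under 0.05. The lowest adjusted p were 0.113 and 0.0902. At an unadjusted limma p under 0.05, 5 of the 25 tested members differed, or 20.0%, against 16% of all tested genes. Adam19 was the 1 member higher in CD8α+ DC, or 4.0% of members against 7.18% of genes. Mmp12, Mmp16, Mmp9 and Mmp8 were the 4 lower ones, or 16% of members against 8.84% of genes. Both CD8α+ arrays lay below both CD8α− arrays for 12 members, or 48.0%, against 28.3% of genes, and above them for 3 members, or 12%, against 25.6% of genes. The median difference was -0.67 over the tested members and -0.02 over all tested genes. With the filter at the 75th percentile, which left 10 brighter members, these medians were -0.08 and -0.02. Across families the median was -0.97 for the 9 Mmp genes, -1.08 for the 2 Timp genes, -0.52 for the 2 Adamts genes and -0.11 for the 12 Adam genes. On the values as deposited the median of the members was -0.11 and that of all genes 0.67, and scaling to a common trimmed mean gave -0.92 and -0.17. When 1 array was left out, the lone array of its group was taken to vary as the other group did. Counts from such fits therefore rest on a borrowed spread. They are listed only with the processing alternatives and are not read as evidence. The medians of the members and of all genes were -0.59 and 0.005 without CD8α+ replicate 1, and -0.60 and -0.01 without CD8α+ replicate 2. They were -0.75 and -0.11 without CD8α− replicate 1. Without CD8α− replicate 2 the median of the members was -0.27 and that of all genes -0.01.

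**Figure D1:**
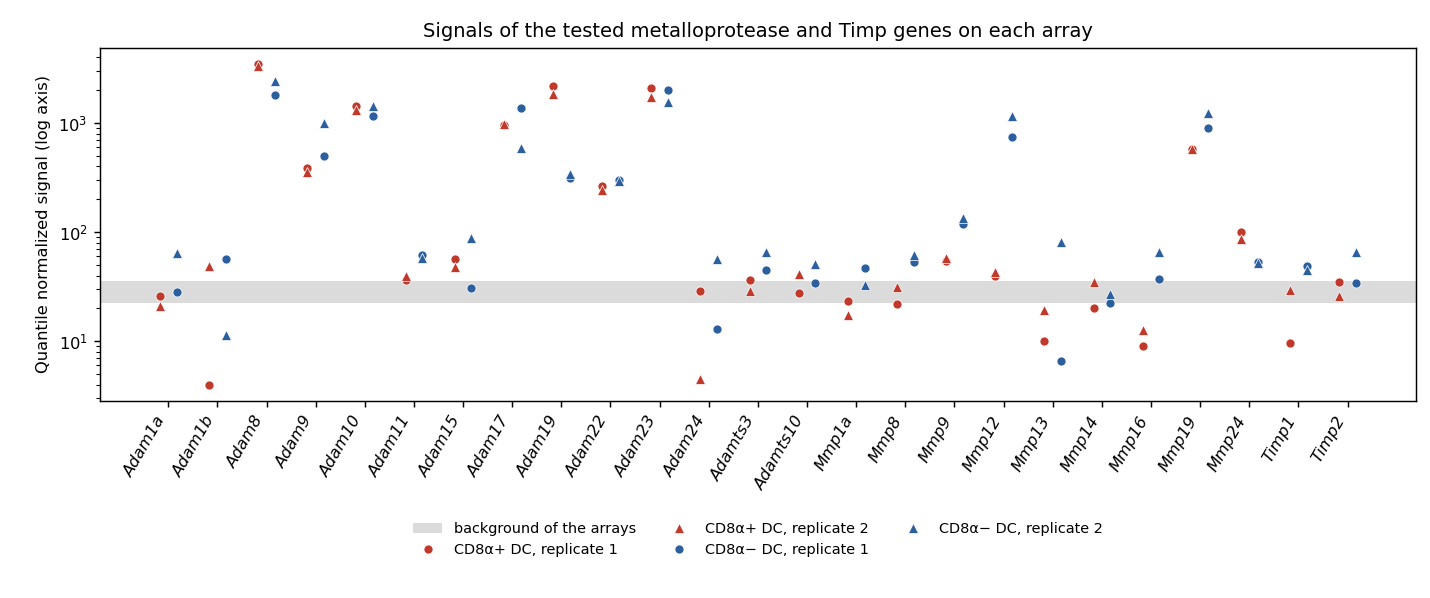
Quantile normalized signal (log axis) of the 25 tested genes on each array, with CD8α+ arrays in red left of CD8α− arrays in blue, circles for replicate 1 and triangles for replicate 2. The grey band spans the background of the 4 arrays, 22.6 to 35.6. Mmp12 and Adam19 show the widest gaps between the groups in opposite directions, at -4.51 and 2.61.

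Mmp12, the macrophage metalloelastase that cuts elastin, had the lowest p of all members. Its normalized signal was 39.3 and 42.8 in CD8α+ DC, against 748 and 1167 in CD8α− DC. The deposited signals were 42.1 and 43.2 in CD8α+ DC, against 732 and 530.5 in CD8α− DC. The groups stood far apart, and both CD8α+ signals were only a little above the backgrounds of those arrays, 31.8 and 22.6. The difference was -4.51 ± 0.38, or 22.8-fold lower in CD8α+ DC, with a limma p of 0.000137 and an adjusted p of 0.101 over all genes. Changes of filter, floor, variance model, probe set choice and replicate block left the difference at -4.51 and could not have altered it for this gene. It was -3.87 as deposited, -4.67 with a common trimmed mean and -3.87 with median centring. Leaving out 1 array gave -4.83 to -4.19, where the sign could not turn because the groups did not overlap. On all 4 arrays the unadjusted limma p stayed under 0.05, with adjusted p from 0.0216 to 0.252.

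Some markers of macrophages and monocytes were also lower in CD8α+ DC. Of 6 tested red pulp macrophage markers, 3 were lower and 1 was higher in CD8α+ DC at an unadjusted p under 0.05. Their summed signals were 1058 and 1164 in CD8α+ DC, against 1561 and 2139 in CD8α− DC. The complement gene C1qb was below background on both CD8α+ arrays and was 104 and 160.25 in CD8α− DC. The adhesion molecule Vcam1 ran the other way, with 353 and 419 in CD8α+ DC and 40.0 and 109 in CD8α− DC. Of 7 tested monocyte markers, 3 were lower and 0 higher, with sums of 3431 and 3537 in CD8α+ DC, against 6536 and 8525 in CD8α− DC. Much of each sum came from Lyz2 (-0.81 ± 0.34) and Cd14 (-0.79 ± 0.31), which did not pass. Csf1r, among those lower, also stands in the type 2 DC list. The part of macrophages and monocytes in the Mmp12 difference was not tested.

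Mmp12 lies in a run of Mmp genes on chromosome 9. In the RefSeq gene order 9 members follow each other there, Mmp13, Mmp12, Mmp1b, Mmp3, Mmp1a, Mmp10, Mmp8, Mmp20 and Mmp7, with 1 other gene, Mmp27, between Mmp8 and Mmp20. Of these 9, Mmp13, Mmp12, Mmp1a and Mmp8 passed the filter and 5 did not. Many MMP promoters are known for an AP-1 site upstream of a TATA box, so the sequences of the run are given here. RefSeq promoter windows (GRCm38.p6, 250 bases before to 50 after a start) were found for 37 of the 65 members, 42 windows in all. AP-1 was searched as TGANTCA, which reads alike on both strands, and TATAAA, the letters of a TATA box, on both strands. In the following stretches, 5′ to 3′ on the strand of the gene, capitals mark the AP-1 match and the TATAAA match after it, with 10 bases on either side.
Mmp13, chr9:7272469-7272513, plus strand: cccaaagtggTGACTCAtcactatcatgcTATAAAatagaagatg
Mmp12, chr9:7347320-7347393, plus strand: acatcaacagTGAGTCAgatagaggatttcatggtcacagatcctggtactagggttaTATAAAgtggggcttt
Mmp1b, chr9:7388060-7388129, minus strand: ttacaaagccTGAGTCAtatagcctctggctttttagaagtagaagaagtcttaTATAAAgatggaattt
Mmp3, chr9:7445766-7445830, plus strand: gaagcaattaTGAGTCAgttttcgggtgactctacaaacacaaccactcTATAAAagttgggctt
Mmp1a, chr9:7464058-7464128, plus strand: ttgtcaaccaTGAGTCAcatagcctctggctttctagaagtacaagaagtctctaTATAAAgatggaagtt
Mmp10, chr9:7502269-7502328, plus strand: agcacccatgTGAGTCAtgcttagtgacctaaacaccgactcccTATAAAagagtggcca
Mmp20, chr9:7628126-7628188, plus strand: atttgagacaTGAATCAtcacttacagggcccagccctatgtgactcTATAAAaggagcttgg
Mmp7, chr9:7692017-7692079, plus strand: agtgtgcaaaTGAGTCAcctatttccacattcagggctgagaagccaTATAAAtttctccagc

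These 8 windows are all the member windows in which an AP-1 match precedes a TATAAA match on either strand, 19.0% of the 42, against 0.898% of all 32851 promoter windows, counted in the same order. Counted from the first base of the window, the TATAAA letters began at base 255 in Mmp12, past the RefSeq start, at 244 in Mmp3, and at 193 to 235 in the other 6. The gap between both matches was 12 bases in Mmp13, 41 in Mmp12 and 27 to 38 in the others. Mmp8 had a TATAAA match on the opposite strand and no AP-1 match in its window. A further Mmp12 window, chr9:7344147-7344446, lies upstream of the one shown and held neither an AP-1 nor a TATAAA match. AP-1 was found in 26.2% of member windows and 7.81% of all windows, and TATAAA in 28.6% and 13.6%. The PU.1 core GAGGAA was found in 19.0% of member windows and 28.3% of all windows. It was searched on both strands. The matches describe letters in these windows and do not show binding.

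The other genes of the run were near or below background in CD8α+ DC. Mmp1a, an interstitial collagenase, was 23.35 and 17.3 in CD8α+ DC, below background on both arrays. It was 47.0 and 33.1 in CD8α− DC, where 1 of 2 arrays was above background. Its difference was -0.97 ± 0.38, with a limma p of 0.0555. Mmp13, another collagenase, was 10.05 and 19.2 in CD8α+ DC, against 6.63 and 81.2 in CD8α− DC, so its groups overlapped and its difference of -0.81 ± 1.24 turned to 0.93 without CD8α− replicate 2. The stromelysins Mmp3 and Mmp10, the matrilysin Mmp7, the enamel protease Mmp20 and Mmp1b had normalized signals of 1.68 to 23.1 on the 4 arrays.

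**Figure D2:**
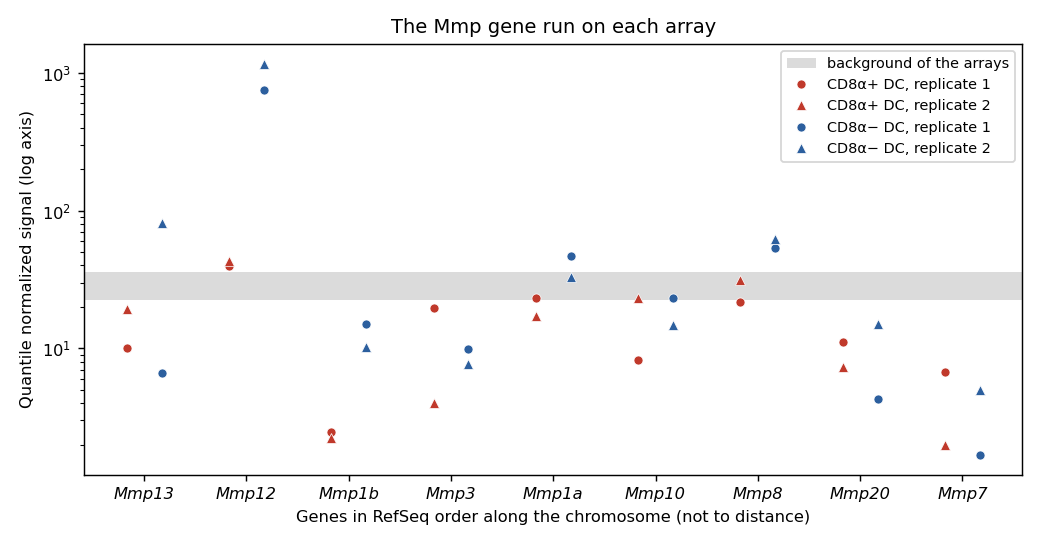
Quantile normalized signal (log axis) of the 9 Mmp genes of the chromosome 9 run, in RefSeq gene order and not to distance, with CD8α+ arrays in red left of CD8α− arrays in blue. The grey band is the background of the arrays, 22.6 to 35.6. Mmp12 at 748 and 1167 in CD8α− DC stands above it, and Mmp8 is above background on both CD8α− arrays.

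Mmp8 and Mmp9, proteases best known from neutrophil granules, were both lower in CD8α+ DC at an unadjusted p under 0.05. Mmp8, the neutrophil collagenase, was 21.8 and 31.5 in CD8α+ DC, where 1 of 2 arrays was above background, against 53.1 and 62.2 in CD8α− DC. Its difference was -1.13 ± 0.36, with a limma p of 0.0301. Mmp9, the gelatinase B that mouse DC are known to use in migration, was 54.8 and 57.7 in CD8α+ DC, against 119 and 135 in CD8α− DC. The groups did not overlap, and the difference was -1.17 ± 0.31, or 2.26-fold lower, with a limma p of 0.0162 and an adjusted p of 0.219. A second Mmp9 probe set gave -1.08 ± 0.41. The unadjusted p of Mmp9 was 0.164 without CD8α+ replicate 1, 0.143 without CD8α+ replicate 2 and 0.391 on the values as deposited. That of Mmp8 was 0.270 when CD8α+ replicate 1 was omitted, 0.103 when CD8α+ replicate 2 was, 0.0654 when CD8α− replicate 2 was and 0.165 on the values as deposited. With arrays centred on their medians the p of Mmp9 was 0.238 and that of Mmp8 0.0778.

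Some neutrophil markers were also lower in CD8α+ DC. Of 8 tested, 4 were lower and 0 higher in CD8α+ DC at an unadjusted p under 0.05, led by the granule genes Camp (-2.27 ± 0.38) and Ngp (-1.43 ± 0.32). Their summed signals were 7428 and 8071 in CD8α+ DC, against 15071 and 12471 in CD8α− DC. Much of each sum came from S100a8 (-0.86 ± 0.33) and S100a9 (-0.50 ± 0.37), which did not pass, and the receptors Cxcr2 (0.52 ± 0.73) and Csf3r (0.11 ± 0.98) did not pass either. The part of neutrophil RNA in the Mmp8 and Mmp9 differences was not tested. The other gelatinase, Mmp2, was above background on no array with either probe set and was not tested.

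Among the membrane-anchored MMP genes, Mmp16 was lower at an unadjusted p under 0.05 and the others did not pass. Mmp16 was 8.95 and 12.65 in CD8α+ DC, below background on both arrays, against 37.6 and 65.3 in CD8α− DC. Its difference was -2.22 ± 0.44, at least 1.85-fold lower, with a limma p of 0.00523. Its other 3 probe sets were not tested, and no more than 1 array of 4 was above background on any of them. Mmp24 was 100.4 and 85.8 in CD8α+ DC, against 53.6 and 52.2 in CD8α− DC. These groups did not overlap, and the difference of 0.81 ± 0.32 had a limma p of 0.0556. Mmp14, which activates the Mmp2 precursor at the cell surface, was 20.1 and 35.2 in CD8α+ DC, against 22.3 and 27.1 in CD8α− DC, and its difference of 0.11 ± 0.42 changed sign in 3 of 12 alternatives. A dimmer, untested Mmp14 probe set was above background on both CD8α+ arrays, at 31.9 and 28.45. It was above background on neither CD8α− array, at 3.55 and 12.7. The remaining Mmp14 probe set was above background on no array. Mmp17, also membrane-anchored, and Mmp11 and Mmp23 were not tested. Mmp19, a protease of basement membrane proteins, was 574 and 584 in CD8α+ DC, against 899 and 1233 in CD8α− DC. Its difference of -0.86 ± 0.34 had a limma p of 0.0588, and on the values as deposited it was 0.09, or -0.58 relative to the median gene.

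Adam19, or meltrin beta, is a sheddase known to cut neuregulin, and its human protein was described as a marker of DC made from monocytes. Its normalized signal was 2164 and 1854 in CD8α+ DC, against 312 and 344 in CD8α− DC. The deposited signals were 2675 and 2355 in CD8α+ DC, against 309.6 and 148.7 in CD8α− DC. The difference was 2.61 ± 0.32, or 6.11-fold higher in CD8α+ DC, with a limma p of 0.000724 and an adjusted p of 0.101. Its second probe set had 1505 and 1442 in CD8α+ DC, against 187 and 355 in CD8α− DC, and gave 2.52 ± 0.44. Both probe sets kept the groups apart. The difference of Adam19 was 3.55 as deposited, 2.745 with a common trimmed mean, 3.55 with median centring and 2.56 with the mean of its probe sets. The other alternatives on all 4 arrays left it at 2.61. Leaving out 1 array gave 2.50 to 2.72, where the sign could not turn because the groups did not overlap. On all 4 arrays the unadjusted limma p stayed under 0.05, with adjusted p from 0.0289 to 0.280. Of its 3 RefSeq promoter windows, 1 held an AP-1 match, in capitals below, and none held a TATAAA match.
Adam19, chr11:46055734-46056033, plus strand: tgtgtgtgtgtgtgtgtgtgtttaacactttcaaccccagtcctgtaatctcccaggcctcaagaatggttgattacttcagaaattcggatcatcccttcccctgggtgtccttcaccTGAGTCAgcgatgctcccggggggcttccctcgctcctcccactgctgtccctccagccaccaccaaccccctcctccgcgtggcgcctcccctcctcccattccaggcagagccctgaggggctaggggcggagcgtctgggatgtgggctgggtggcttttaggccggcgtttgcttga

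The other ADAM genes of leukocytes did not pass. Adam8, which sheds adhesion molecules from leukocytes, was 3487 and 3329 in CD8α+ DC, against 1815 and 2449 in CD8α− DC. Its groups did not overlap, and its difference of 0.69 ± 0.34 had a limma p of 0.104. Adam9, a widely expressed sheddase, was 386 and 353 in CD8α+ DC, against 496 and 991 in CD8α− DC, a difference of -0.93 ± 0.45. On the values as deposited it was 0.05, with arrays centred on their medians 0.05, and without CD8α− replicate 2 it was -0.43. Adam9 is the last of 5 neighbouring Adam genes on chromosome 8, and the other 4, Adam18, Adam3, Adam5 and Adam32, were above background on no array.

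Adam10 and Adam17, the principal sheddases of leukocytes, overlapped between the groups. Adam10, which starts Notch cleavage, was 1422 and 1316 in CD8α+ DC, against 1167 and 1438 in CD8α− DC, a difference of 0.08 ± 0.33. Adam17, the convertase of tumour necrosis factor, was 959.7 and 983 in CD8α+ DC, against 1385 and 585 in CD8α− DC. Its CD8α− arrays lay on either side of the CD8α+ arrays, and the difference of 0.11 ± 0.52 was -0.51 without CD8α− replicate 2. A second Adam17 probe set showed this more widely, with 299 and 257 in CD8α+ DC, against 432 and 40.05 in CD8α− DC. Adam15, a binding partner of integrins, was 57.1 and 48.3 in CD8α+ DC, against 30.6 and 88.2 in CD8α− DC, and its difference was 0.01 ± 0.60.

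Adam11, Adam22 and Adam23 lack protease activity and are known as receptors of LGI proteins in the nervous system. Adam23 differed between its probe sets. The probe set that represents it had 2097 and 1746 in CD8α+ DC, against 2017 and 1549 in CD8α− DC, a difference of 0.11 ± 0.34. Another had 229 and 223 in CD8α+ DC, against 90.8 and 56.8 in CD8α− DC, a difference of 1.65 ± 0.38 with a limma p of 0.00942. The last one gave -0.48 ± 0.59. Adam22 was 263 and 243 in CD8α+ DC, against 302 and 293 in CD8α− DC, a difference of -0.24 ± 0.31, and its other tested probe set gave 0.76 ± 0.91. Adam11 was 36.2 and 39.4 in CD8α+ DC, against 61.6 and 57.4 in CD8α− DC, a difference of -0.66 ± 0.31. In all, 8 tested members were read by more than 1 tested probe set, and in 3 of them, Adam17, Adam22 and Adam23, the signs differed.

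**Figure D3:**
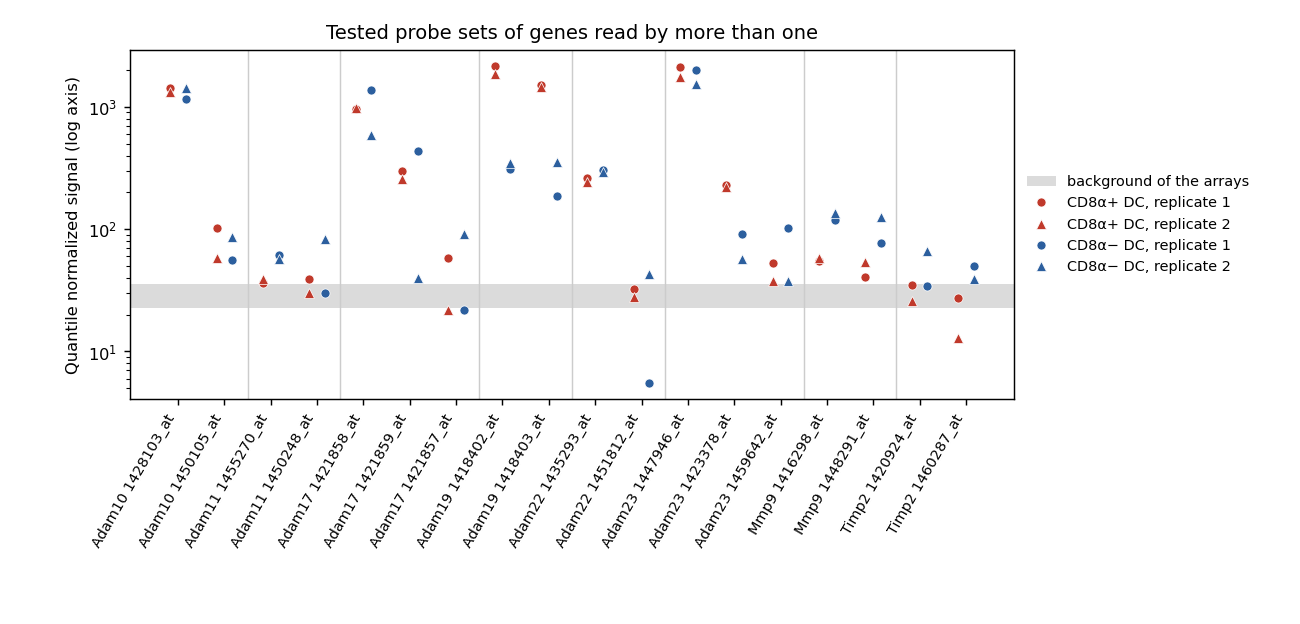
Quantile normalized signal (log axis) on each array for the tested probe sets of the 8 genes read by more than 1, with CD8α+ arrays in red left of CD8α− arrays in blue and background in grey. Both Adam19 probe sets separate the groups, at 2.61 and 2.52, while the 3 Adam23 probe sets gave 0.11, 1.65 and -0.48.

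Sperm ADAM genes and ADAMTS genes were near or below background. Adam1a and Adam1b, which encode forms of the sperm protein fertilin, and the testis gene Adam24 passed the filter with differences of -0.87, -0.44 and -0.91 and standard errors of 0.52 to 1.23, and at least 2 of the 4 arrays were below background for each. The sheddase genes Adam12, Adam28 and Adam33 were not tested, and Adam12 and Adam28 were above background on no array. The other untested Adam genes, mainly known from testis or epididymis, were Adam2, Adam4, Adam6a, Adam6b, Adam7, Adam21, Adam25, Adam26a and Adam34, beside the 4 on chromosome 8. All 7 Adamts genes that cleave proteoglycans, Adamts1, Adamts4, Adamts5, Adamts8, Adamts9, Adamts15 and Adamts20, were untested, as were Adamts6, Adamts7, Adamts12, Adamts16, Adamts18 and Adamts19. The highest signal of any untested member was 62.8, from an Adamts6 probe set on CD8α− replicate 2. Adamts3, which processes procollagen, was 36.3 and 28.85 in CD8α+ DC, against 44.7 and 65.6 in CD8α− DC, with a difference of -0.74 ± 0.38. Adamts10, linked to fibrillin fibres, was 27.5 and 41.6 in CD8α+ DC, against 34.3 and 50.6 in CD8α− DC, and its groups overlapped.

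The inhibitors were dim as well. Timp1, which binds Mmp9, was 9.68 and 29.4 in CD8α+ DC, where 1 of 2 arrays was above background, against 49.35 and 45.4 in CD8α− DC. Its groups did not overlap, and the difference of -1.49 ± 0.62 had a limma p of 0.0666. Omitting CD8α+ replicate 1 gave -0.68, and omitting CD8α+ replicate 2 gave -2.29. Timp2 was 34.7 and 25.8 in CD8α+ DC, against 34.3 and 65.8 in CD8α− DC, a difference of -0.67 ± 0.46, and its second tested probe set gave -1.25 ± 0.49. An untested Timp2 probe set ran the other way, with both CD8α+ arrays above both CD8α− arrays and a difference of 0.86. It was above background on 1 CD8α+ array and on no CD8α− array. The remaining untested Timp2 probe sets overlapped between the groups, with differences of -0.22, 0.47 and -0.11. Timp3, a matrix-bound inhibitor that also acts on Adam17, was above background on no array with any of its 4 probe sets. Timp4 was above background on 1 array.

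**Figure D4:**
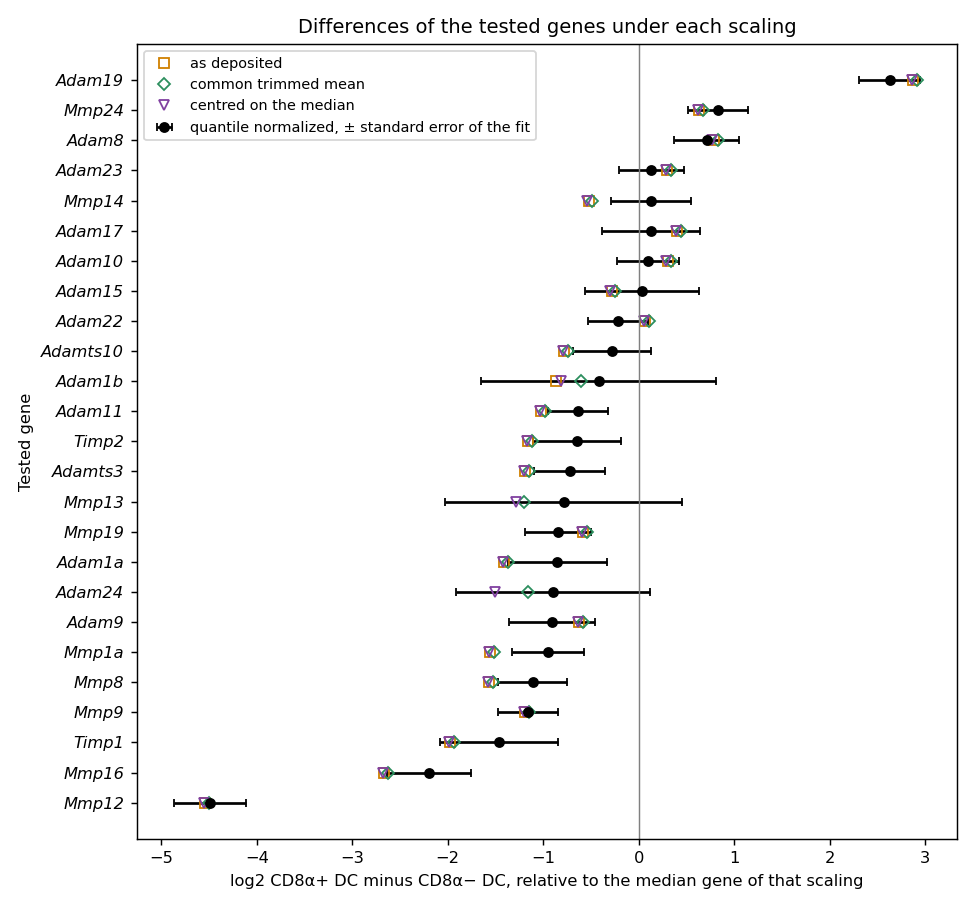
Differences of the 25 tested genes, as log2 CD8α+ DC minus CD8α− DC relative to the median gene of each scaling. Black points with bars are quantile normalized values with the standard error of the fit, and open symbols are the other scalings. For 22 of the 25 genes every scaling shown gave the same sign, 16 of them negative, and Adam15, Adam22 and Mmp14 changed sign.

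The split of the calls depended on the scaling. At an unadjusted p under 0.05, 756 genes were higher and 931 lower in CD8α+ DC, with 1 and 4 members. On the values as deposited there were 1111 and 250 genes, with 2 and 2 members. With a common trimmed mean there were 638 and 1757 genes, with 1 and 10 members, and with median centring 3032 and 447 genes, with 4 and 2 members. The median gene lay at 0.67, -0.17 and 0.69 under these scalings. Relative to it, Mmp12 was between -4.55 and -4.49, Adam19 between 2.63 and 2.92, Mmp16 between -2.68 and -2.20 and Mmp9 between -1.21 and -1.15.

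Partners of Adam10 and Adam17 mostly did not pass. Of 13 tested genes, 1 was higher and 1 lower in CD8α+ DC at an unadjusted p under 0.05, with a median of -0.34. The brightest probe set of Pcsk5, a proprotein convertase, was 130.1 and 100.5 in CD8α+ DC and not well above background in CD8α− DC, at least 3.55-fold higher (3.54 ± 0.44). Its other tested probe set ran the other way and did not pass, with 24.3 and 30.8 in CD8α+ DC, against 56.5 and 35.55 in CD8α− DC (-0.71 ± 0.40). Frmd8, which stabilises the complex of Adam17 with its iRhom cofactors, was lower (-1.05 ± 0.34). The iRhom gene Rhbdf2 (-0.76 ± 0.32) and the probe set representing the Adam10 partner Tspan33 (0.78 ± 0.32) did not pass, nor did Furin, a convertase that removes inhibitory prodomains (-0.41 ± 0.37). A dimmer Tspan33 probe set gave 1.62, with a limma p of 0.0127. These lists were chosen with earlier results of the same arrays known, and their counts read against 7.18% of genes higher and 8.84% lower.

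Most known substrates of Adam10 and Adam17 did not pass. Of 25 tested genes, 16 did not, 8 were lower and 1 was higher at an unadjusted p under 0.05, with a median of -0.58. The lower ones included F11r, a junctional adhesion molecule (-3.35 ± 0.31, at least 2.77-fold lower, and 0.19 on its other probe set). The brightest F11r probe set was below background on both CD8α+ arrays. Also lower were the growth factor receptor Csf1r (-2.86 ± 0.35), the decoy receptor Il1r2 (-1.42 ± 0.33) and Tnf (-1.81 ± 0.46). Vcam1 was the higher one (2.54 ± 0.58). Notch2 (-0.61 ± 0.34), Ptprc (-0.11 ± 0.32) and the hyaluronan receptor Cd44 (2.04 ± 1.07) did not pass on their brightest probe sets. A dimmer Ptprc probe set was lower (-1.44 ± 0.40, limma p 0.0186), and other Cd44 probe sets gave 0.31 and 0.55. Csf1r also stands in the type 2 DC and monocyte lists, and Vcam1 in the macrophage list.

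Among other regulators of these proteases, 3 of 8 tested genes were lower and 0 higher, with a median of -1.01. Timp1 and Timp2 are part of that list. The clearance receptor Lrp1 (-2.18 ± 0.36, 4.52-fold lower), Lcn2, which binds Mmp9 in neutrophils (-1.71 ± 0.38), and the syndecan Sdc1 (-1.35 ± 0.43) made the count. The MMP inducer Bsg (0.35 ± 0.34) did not pass. Of 5 tested genes that activate MMP precursors through plasmin or related proteases, 2 were lower and 0 higher. These were St14, or matriptase (-4.05 ± 0.69), where 1 of 2 CD8α+ arrays was above background, and the urokinase receptor Plaur (-1.97 ± 0.37, 3.92-fold lower). Of 8 tested matrix substrates, Nid1 (-1.73 ± 0.37, at least 2.29-fold lower), Col3a1 (-1.12 ± 0.33) and Thbs1 (-1.20 ± 0.40) were lower and 0 were higher. Of 5 tested other metzincins 0 passed, among them Adamdec1 (-0.77 ± 0.46).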

How the data were processed

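The table the authors deposited holds MAS5 intensity on a linear scale (per the submitters' processing notes), with the Microarray Suite and GeneSpring programs named by the design text. No source used here gives the scaling target, and the table carries no detection calls. The design text and the labels' protocols differ on how RNA was prepared.

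The deposited arrays were not on a common scale, with medians from 17.4 to 35.1, so 45037 non-control probe sets were quantile normalized. Lower signals were set to 7.28, the mean 25th percentile, before log2 transformation. Probe sets with a mean signal of at least 23.7 were tested by limma 3.58.1 under R 4.3.3, using lmFit and eBayes, two-sided, with Benjamini-Hochberg adjustment over the whole table. Residual degrees of freedom numbered 2 and prior ones 2.51. An exact permutation test of 2 arrays against 2 cannot give a two-sided p below 0.333 and was not used. Each gene took the values of its brightest tested probe set, avoiding _x_at ones where possible. Background was the highest Bacillus control of each array. A fold is given as "at least" where a group had no array above it, then set against background, and is not given where 1 of 2 arrays was. The platform annotation gives 1 symbol to 34945 probe sets, several to 932 and none to 9160, and all 65 member genes matched RefSeq by Entrez identifier with the symbol kept. Promoter sequences came from RefSeq, build GRCm38.p6.

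Members and lists were chosen with earlier results of these data known. The text names Cd8a, a set of better known members and the 12 with the smallest p, other members by their brightest probe set, and from each list tested genes of smallest p or highest signal. Alternatives changed the scaling, filter, floor, variance model, probe set choice, replicate block and arrays. The small number of arrays limits the precision of the values, as do signals near background and the wider gap within the CD8α− pair. Python 3.11.15 with pandas 2.3.3 served for the sequence and figure steps.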

Additional observations from a re-analysis of the deposited data

How the results depend on the processing

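Over 13 alternatives, 14 of the 25 tested members kept their sign in every alternative that tested them, Mmp12, Adam19, Mmp16, Mmp9 and Mmp8 among them. The groups of these named genes did not overlap, so leaving out 1 array could not turn the sign. Filter, variance model and block left their differences unchanged, so mainly the scalings could have turned it. The differences ranged from -4.83 to -3.87 for Mmp12, 2.50 to 3.55 for Adam19 and -2.80 to -1.63 for Mmp16. On all 4 arrays these also kept an unadjusted limma p under 0.05. After adjustment, 0 probe sets were called, against 406 with median centring, 34 with the stricter filter, 60 with an intensity trend and 27 with a replicate block, and 0 to 2853 when 1 array was left out (2853 without CD8α− replicate 1). In the fits with 1 array left out, the lone array of a group was taken to vary as the other group did. Their counts, here and below, therefore cannot be read as a gain or loss of calls. Members called on all 4 arrays were Mmp12 and Adam19 with median centring, the stricter filter and the trend (2 each) and Mmp12 with the block (1). These calls are by gene. Genes called in all were 232 of 10502 with median centring and 65 of 6176 with the stricter filter. Of 10530 genes, 86 were called with the trend and 65 with the block. At unadjusted p, members higher and lower in CD8α+ DC numbered 1 and 4 of the 25 tested. With no filter they numbered 2 and 12, but of 65 tested, so these counts cannot be set directly against 1 and 4. Without the filter 7.06% of all genes were higher and 8.52% lower, against 7.18% and 8.84% with it. Of 25 members, 2 and 2 passed as deposited, where 10.6% and 2.38% of all genes did. With a common trimmed mean 1 and 10 passed, against 6.03% and 16.6% of all genes. With median centring 4 and 2 passed, against 28.9% and 4.26% of all genes. Members numbered 2 and 6 with a floor of 16, against 8.14% and 9.72% of all genes. They were also 2 and 6 with the mean of probe sets, against 9.46% and 9.68% of all genes. The trend gave 3 and 5, against 8.06% and 9.49% of all genes. Leaving out 1 array gave 1 to 4 higher and 2 to 11 lower. The median of the members, -0.67, was -0.11 as deposited, -0.92 with a common trimmed mean, -0.13 with median centring, -0.42 with no filter and -0.0788 with the stricter filter, which tested 10 members, and -0.75 to -0.27 when 1 array was left out. The replicate numbers share no stated animal, and same-numbered deviations correlated at 0.03, so the replicate block pairs nothing the labels name. With it Mmp8 had an unadjusted p of 0.0532 and Timp1 one of 0.0349, and no other member crossed 0.05. With the scaling and filter changes, more, fewer or other probe sets were tested or the arrays were matched otherwise, and further causes were not tested. Signals near background limit the members below it.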
